A study of Homo sapiens with 6 samples.

Results

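The fibroblast growth factor (FGF) ligands and receptors were examined in U87 cells, an established human glioblastoma line, exposed for 48 h to rutaecarpine, a plant alkaloid studied here as an activator of the aryl hydrocarbon receptor (AhR). The set was 9 genes whose name in the expression table is FGF1, FGF2, FGF5, FGF7, FGFR1, FGFR2, FGFR3, FGFR4 or FGFRL1, out of 60671 genes listed. It holds 4 ligands and 5 receptors. Members were found by name with no cut on measured values, but the names were listed with earlier results of these data known, and FGF18 and other ligands are given apart. The rutaecarpine group received 100 μM of the compound in 0.1% DMSO (3 libraries) and the control group 0.1% DMSO alone (3 libraries), both in serum-free medium. The labels do not say whether the 3 libraries of a group came from separate cultures, so p values measure the spread between these libraries, which may be technical. Values are TPM, the share of a library's transcripts that a gene holds after scaling by gene length, which allows levels to be compared between genes. They carry no read numbers, so the depth behind each value is unknown.

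FGFs are signalling proteins that bind receptor tyrosine kinases (FGFR1 to FGFR4) together with heparan sulfate chains on the cell surface. Bound receptors pass the signal through the adaptor FRS2 to the RAS-ERK cascade, which in turn induces its own inhibitors, such as Sprouty proteins and DUSP6. FGFRL1 binds FGFs but lacks the kinase domain. FGF1 and FGF2 have no signal peptide and leave cells by unconventional routes, whereas FGF5 and FGF7 are secreted in the usual way. FGF2 is a well-known mitogen of glial and glioblastoma cells, and FGF7 acts mainly on the epithelial form of FGFR2.

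The study searched promoters for a dioxin response element (DRE), the letters to which the AhR complex binds. It did so for cancer- and migration-related genes whose change after rutaecarpine it had checked by quantitative PCR. It reported putative DREs in all of these, and no member of the set here was among them. For 8 of the 9 genes, RefSeq promoter windows on GRCh38.p14 (250 bases before to 50 after a transcription start) were searched on both strands for TNGCGTG, the form used in the study's methods, and for its core GCGTG, which every TNGCGTG contains. These windows are shorter than the stretches upstream of coding sequences that the study searched, and matches farther out were not looked for. Within them, the window of FGF2 was the only one of the 17 windows of these 8 genes with TNGCGTG. Of all 35116 promoter windows, 5.51% held that form and 36.5% held the core. Counted by gene, the shares were 6.69% and 40.6% of 27305 genes, and the core was found in 6 of the 8 members with a window. The FGF2 and FGF7 stretches are shown because these genes had the largest changes in opposite directions. Each begins 250 bases before the RefSeq start and ends where the GENCODE gene begins. Capitals mark TNGCGTG.

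FGF2, chr4:122826581-122826707, plus strand: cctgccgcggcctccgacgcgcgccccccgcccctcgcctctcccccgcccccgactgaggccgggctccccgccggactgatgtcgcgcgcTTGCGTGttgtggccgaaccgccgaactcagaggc
FGF7, chr15:49422992-49423095, plus strand: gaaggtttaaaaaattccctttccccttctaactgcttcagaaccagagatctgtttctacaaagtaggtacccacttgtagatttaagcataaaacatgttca

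The FGF2 match lies at 122826673 to 122826679 on chromosome 4, beginning 158 bases before the RefSeq start and 35 bases before the GENCODE start. The shown FGF2 stretch has a GC content of 78.0% and that of FGF7 36.5%. The shares over all windows were not matched for GC content. The FGF7 window holds the core, but past the stretch shown. A match of letters is a description of the sequence and not a measured binding site.

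The libraries need a few words before the members. Control replicate 3 differed from its group, with a median log2(TPM + 1) over tested genes of 3.56 against 3.97 and 3.95. It held the lowest control value of 5 of the 6 tested members, as it did for 62.3% of all tested genes. Rutaecarpine replicate 2 held the lowest treated value of all 6, and of 56.5% of all tested genes. Of the markers of the line, all 6 mesenchymal genes were expressed, and their sum was lower after rutaecarpine (11301 to 12706 TPM) than in controls (15447 to 18014 TPM). The means of VIM (7498 to 4857 TPM) and FN1 (6025 to 3241 TPM) fell, as did NES and, with groups that overlapped, TNC. Those of CD44 (655 to 756 TPM) and CHI3L1 (2057 to 2593 TPM) rose, with groups that overlapped. Of the 5 glial markers, AQP4, SOX2 and S100B stayed below 1 TPM in every library, and the sum of the 5 was higher after rutaecarpine (7.78 to 9.11 TPM) than in controls (5.12 to 6.74 TPM). OLIG2 accounted for most of that, with a log2 fold change of 0.83 (adjusted p = 0.0262 by limma), short of the fold threshold. Of the markers of other cell types, AIF1 and MS4A1 were listed at 0, PTPRC, CD3E and the 3 epithelial genes stayed below 1 TPM, and CD68 and SNAP25 were expressed. The summed immune markers, nearly all CD68, lay at 452 to 511 TPM in controls and 319 to 357 TPM after rutaecarpine. The summed neuronal markers lay at 20.2 to 28.1 and 15.8 to 17.6 TPM, the endothelial markers at 1.83 to 2.95 and 2.14 to 3.66 TPM, the epithelial markers at 0.390 to 1.72 and 0.200 to 1.16 TPM. Their part in the results was not tested. As a check of the treatment, the AhR target TIPARP rose from 11.7 ± 3.52 TPM (SD, n = 3) to 107 ± 15.0 TPM. AHRR, the AhR repressor, was at 0.283 ± 0.194 TPM in controls and 4.53 ± 1.59 TPM after rutaecarpine. CYP1B1, the AhR-induced oxidase, rose by 2.52 on the log2 scale, while CYP1A1 reached only 1.15 ± 0.0306 TPM from 0.0800 ± 0.0985 TPM in controls.

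FGF2 rose about 5-fold and was the only member that passed the test. Genes were compared by limma on log2(TPM + 1), and a differentially expressed gene (DEG) had a Benjamini-Hochberg adjusted p no higher than 0.05 with a log2 fold change beyond 1 in either direction. Of the 9 members, 6 passed the filter on low values (1 TPM or more in 3 or more libraries), and 1 of these 6 was a DEG. Among all 14377 genes tested, 3.51% were DEGs, 2.01% upward and 1.50% downward, so that 57.2% of DEGs were upward, a share that was 46.0% after each library was centred on its median. The groups did not overlap for FGF2, FGF7 and FGFRL1, which is 3 of the 6, where 33.3% of all tested genes had groups that did not overlap. In bulk RNA, fewer expressing cells and less RNA per cell cannot be told apart.

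**Figure D1:**
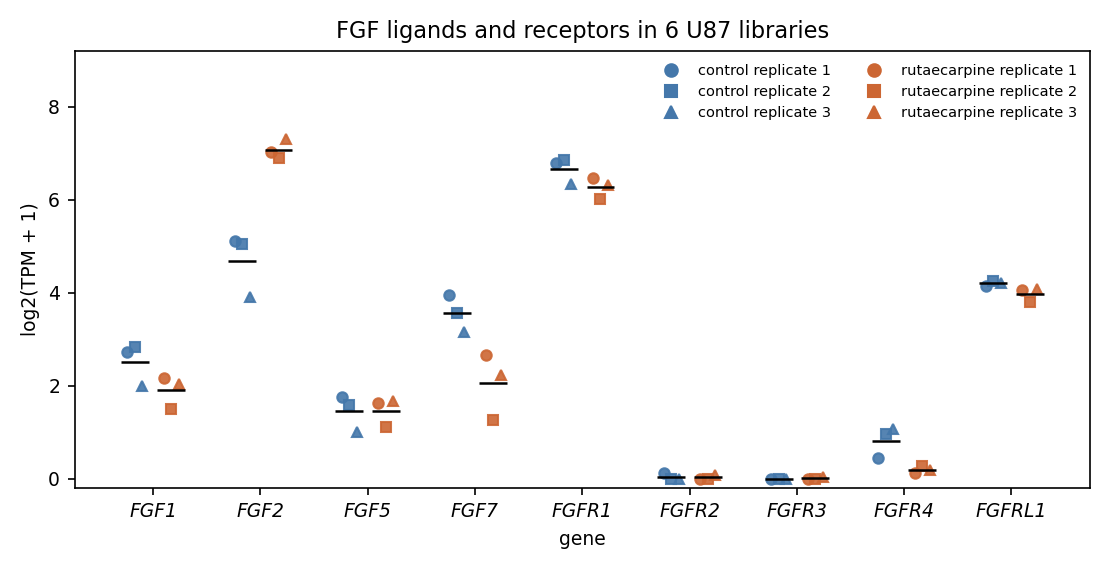
Level of each member as log2(TPM + 1) in the 3 control libraries (blue) and the 3 rutaecarpine libraries (orange), with 1 symbol per replicate and a bar at the group mean. The treated FGF2 points lie well above the control points, FGF7, FGFR4 and FGFRL1 lie below without overlap, and FGFR2 and FGFR3 sit near 0.

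FGF2 (ENSG00000138685, chromosome 4, 122826708 to 122898236, plus strand; positions here are from GENCODE release 29 on GRCh38) had 33.52, 31.98 and 14.05 TPM in control replicates 1, 2 and 3. After rutaecarpine it had 128.95, 117.64 and 156.13 TPM. The lowest treated library was thus far above the highest control, and control replicate 3 was the low one of its group. The means were 26.5 ± 10.8 TPM (SD, n = 3) in controls and 134 ± 19.8 TPM (SD, n = 3) after rutaecarpine, a ratio of 5.06. The log2 fold change was 2.38 (standard error 0.32, 95% interval 1.64 to 3.13, limma adjusted p = 0.00533). It was smallest, at 1.99, without control replicate 3 and largest, at 2.59, without control replicate 1. FGF2 was a DEG in each of the 14 alternative fits, with adjusted p from 2.24e-05 to 0.0366, and with the replicate number as a block its adjusted p was 0.0341.

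NUDT6 is transcribed from the strand opposite to FGF2 and shares 9540 bp of the genome with it, from 122888697 on. Whether the libraries kept strand is not given in the sources used here, so reads of the shared stretch may have been assigned to either gene. NUDT6 had 11.02, 10.90 and 9.38 TPM in controls and 7.45, 5.40 and 7.83 TPM after rutaecarpine, all lower than the controls and the opposite of FGF2. Its log2 fold change of -0.55 had an adjusted p of 0.115 by limma.

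FGF7 (ENSG00000140285, chromosome 15, 49423096 to 49488775, plus strand), the keratinocyte growth factor, moved the other way. Control replicates 1, 2 and 3 had 14.34, 10.85 and 7.84 TPM, and the rutaecarpine libraries 5.33, 1.40 and 3.70 TPM. Every treated library was below every control, with rutaecarpine replicate 2 the lowest. The means were 11.0 ± 3.25 and 3.48 ± 1.97 TPM (SD, n = 3), a ratio of 0.316. The log2 fold change of -1.50 (standard error 0.38, 95% interval -2.40 to -0.59) missed the threshold, with an adjusted p of 0.0574 by limma. By methods other than the fit used here, the study listed FGF2 among its up-regulated DEGs and FGF7 among its down-regulated DEGs. Without control replicate 3 the FGF7 log2 fold change was -1.70 with an adjusted p of 0.0202 by limma, which would make FGF7 a second DEG here.

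The FGF7 level is uncertain because the genome holds truncated copies of the gene, and RSEM divides reads that match several copies between them. Of the 8 listed FGF7 pseudogenes, FGF7P3, FGF7P5 and FGF7P6 had values above 0. FGF7P3 had 4.53, 3.76 and 1.09 TPM in controls and 8.46, 5.40 and 7.38 TPM after rutaecarpine, so it was higher in every treated library (adjusted p = 0.141 by limma). FGF7P5 swung between 0 and 18.78 TPM among libraries of the same group. FGF7P6 had 14.69 TPM in rutaecarpine replicate 1 against 1.72 and 2.72 TPM in replicates 2 and 3. Summed over FGF7 and its copies, the controls had 37.83, 17.02 and 13.05 TPM and the treated libraries 28.48, 14.30 and 32.58 TPM. The treated sums lay within the range of the control sums, with means of 22.6 ± 13.3 and 25.1 ± 9.59 TPM (SD, n = 3). The gap seen for FGF7 itself was thus not present in the sum, which also carries the swings of FGF7P5 and FGF7P6. TPM is scaled by gene length, so a sum of TPM need not keep reads that move between copies. Whether reads moved was not tested.

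**Figure D2:**
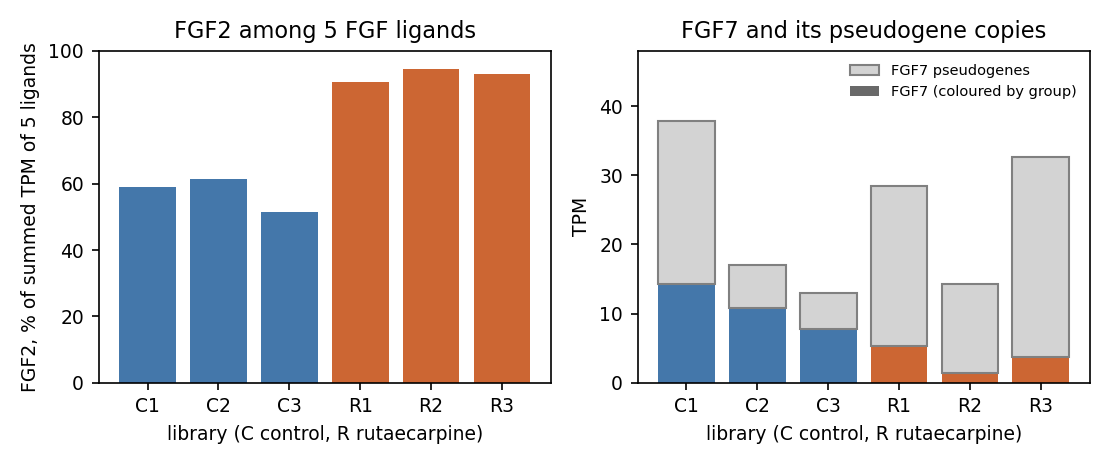
Left, FGF2 as a percentage of the summed TPM of FGF1, FGF2, FGF5, FGF7 and FGF18 in each library; right, TPM of FGF7 (coloured) with its pseudogenes stacked on top (grey). FGF2 made up 51.4% to 61.2% of the ligand sum in controls and 90.6% to 94.4% after rutaecarpine, while the stacked FGF7 bars overlap between groups.

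FGF1 (ENSG00000113578, chromosome 5, 142592178 to 142698070, minus strand), the ligand that binds all 4 kinase receptors, had 5.59, 6.10 and 2.95 TPM in controls and 3.46, 1.82 and 3.11 TPM after rutaecarpine. The groups overlapped only through control replicate 3. The log2 fold change was -0.61 (standard error 0.29, 95% interval -1.30 to 0.08, adjusted p = 0.256 by limma). Without control replicate 3 it was -0.88 with an adjusted p of 0.0353, still short of the fold threshold for a DEG.

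FGF5 (ENSG00000138675, chromosome 4, 80266599 to 80336680, plus strand), known as a brake on hair growth, had 2.37, 2.01 and 0.99 TPM in controls and 2.07, 1.16 and 2.16 TPM after rutaecarpine. These ranges overlapped almost wholly. The means were 1.79 ± 0.716 and 1.80 ± 0.553 TPM (SD, n = 3), with a log2 fold change of 0.02 (95% interval -0.61 to 0.65, adjusted p = 0.973 by limma) whose sign turned when libraries were rescaled or left out.

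Among the receptors, FGFR1 carried nearly all kinase receptor mRNA. FGFR1 (ENSG00000077782, chromosome 8, 38400215 to 38468834, minus strand) had 108.96, 113.67 and 79.25 TPM in controls and 87.48, 63.23 and 78.23 TPM after rutaecarpine. Control replicate 3 fell among the treated libraries, while the other controls lay above all of them. The means were 101 ± 18.7 and 76.3 ± 12.2 TPM (SD, n = 3). The log2 fold change was -0.39 (standard error 0.17, 95% interval -0.80 to 0.02, adjusted p = 0.230 by limma). Without control replicate 3 it was -0.55 with an adjusted p of 0.0247, a fold still too small for a DEG. FGFR1 splice forms, which differ in ligand preference, are not separated in a table of genes.

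FGFR2 (ENSG00000066468, chromosome 10, 121478334 to 121598458) and FGFR3 (ENSG00000068078, chromosome 4, 1793293 to 1808872) were at or near 0. The highest value of any library was 0.08 TPM for FGFR2, in control replicate 1, and 0.02 TPM for FGFR3, in rutaecarpine replicate 3. FGFR4 (ENSG00000160867, chromosome 5, 177086886 to 177098144) was weak, at 0.35, 0.93 and 1.10 TPM in controls and 0.08, 0.21 and 0.14 TPM after rutaecarpine. All treated libraries lay below the controls, but FGFR4, FGFR2 and FGFR3 did not pass the filter. With no filter, the FGFR4 log2 fold change was -0.63 (standard error 0.18) with an adjusted p of 0.169 by limma over 29330 genes. As a result, FGFR1 made up 98.6% to 99.6% of the summed TPM of the 4 kinase receptors in controls and 99.7% to 99.9% after rutaecarpine.

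FGFRL1 (ENSG00000127418, chromosome 4, 1009936 to 1026897, plus strand), the receptor without a kinase, had 16.64, 18.13 and 17.50 TPM in controls and 15.53, 12.85 and 15.95 TPM after rutaecarpine. All treated libraries were lower, by a margin smaller than the spread within the treated group. The log2 fold change was -0.23 (standard error 0.13, 95% interval -0.54 to 0.08, adjusted p = 0.341 by limma). Relative to FGFR1 in the same library, FGFRL1 stood at 0.178 ± 0.0375 in controls and 0.195 ± 0.0150 after rutaecarpine (SD, n = 3).

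**Figure D3:**
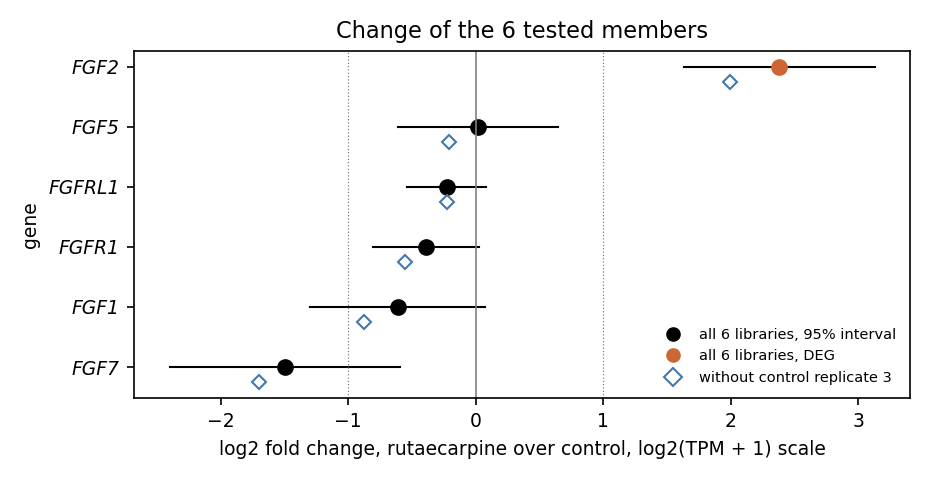
Log2 fold change of the 6 tested members on the log2(TPM + 1) scale (filled points) with the 95% interval of the limma fit, and the same without control replicate 3 (open diamonds); dotted lines mark the fold threshold. FGF2 alone lies above the upper line, FGF7 has its point below the lower line with an interval from -2.40 to -0.59, and the other 4 lie between the lines.

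The order of the levels within each group changed at the top. In controls, FGFR1 was highest, then FGF2 and FGFRL1, whose ranges overlapped, then FGF7, FGF1, FGF5 and FGFR4, the ranges of the last pair also overlapping. After rutaecarpine, FGF2 passed FGFR1, with ranges that did not overlap, and FGF7, FGF1 and FGF5 formed a run of neighbours with overlapping ranges. The TPM of FGF2 was 0.308, 0.281 and 0.177 times that of FGFR1 in controls and 1.47, 1.86 and 2.00 times after rutaecarpine. The ratio of FGF2 to FGF7 was 2.34, 2.95 and 1.79 in controls and 24.2, 84.0 and 42.2 after rutaecarpine. These ratios within a library do not depend on how libraries are scaled against each other, and the pairs were picked after their values were seen, so no test was made.

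Over the 6 libraries, the genes whose log2(TPM + 1) followed FGF2 most closely were KLF5 (Pearson's r = 0.999), CLDND1 (0.999), RIPK2 (0.999), TBCEL (0.998) and TSPYL2 (0.998), out of 13121 tested genes with a mean of 2 TPM or more in a group. These 6 points share the split into treated and control libraries, and the low value of control replicate 3, so the likeness is given as a description. KLF5, a transcription factor, had 5.58, 5.65 and 2.79 TPM in controls and 14.42, 14.41 and 17.44 TPM after rutaecarpine.

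Other FGF genes were few. Of 14 further ligands that act outside the cell, 7 were listed at 0 in all libraries and 1, FGF18, passed the filter. FGF18 had 1.15, 1.28 and 1.48 TPM in controls and 2.46, 2.54 and 2.84 TPM after rutaecarpine, higher in every treated library, with a log2 fold change of 0.65 (adjusted p = 0.0520 by limma). The 4 FGF homologous factors, which stay inside cells and bind sodium channels, were all tested and none was a DEG. Mean TPM in controls and after rutaecarpine was 6.92 and 6.32 for FGF11, 1.72 and 1.24 for FGF12, 5.36 and 6.76 for FGF13, and 3.22 and 1.89 for FGF14.

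Among 12 co-receptors and binding proteins, 5 were tested and FGFBP2 alone was a DEG, where 3.51% of all tested genes were DEGs. FGFBP2, named as an FGF-binding protein, had 0.81, 0.67 and 0.64 TPM in controls and 10.40, 11.86 and 9.99 TPM after rutaecarpine. The lowest treated library was far above the highest control, and the ratio of means was 15.2. It passed the filter through the treated group alone, so its test is given from the fit with no filter, where it rose by 2.78 on the log2 scale with an adjusted p of 0.00227 by limma. With the filter it was not tested when 1 treated library was left out. The related FGFBP1 had 0.06 TPM in control replicate 2 and was listed at 0 elsewhere, FGFBP3 stayed between 0.17 and 0.40 TPM, and the Klotho co-receptors KL and KLB were at or below 0.02 TPM. Of 28 heparan sulfate carriers and enzymes, 19 were tested, 0 rose and 1 fell. Over all tested genes, 2.01% rose and 1.50% fell as DEGs. The median log2 fold change of the 19 was -0.24 against 0.08 for all tested genes. The one that fell was SDC1, a cell-surface carrier of heparan sulfate, by 1.16 on the log2 scale (adjusted p = 7.55e-04 by limma). The study also listed SDC1 as down-regulated. Without control replicate 3, GPC6, a glypican, also passed, at -1.25 with an adjusted p of 0.00102 by limma, so that 2 of the 19 fell. With library weights on all 6 libraries, 2 of the 19 fell as well. GPC1 (-0.59, adjusted p = 0.00776 by limma), SDC4 (-0.57, adjusted p = 0.0289) and EXT1 (0.50, adjusted p = 0.0365) passed on p but not on fold. Of 6 genes for the export of FGF1 and FGF2, 5 were tested and 0 were DEGs, and ANXA2 (-0.39, adjusted p = 0.0181 by limma) passed on p alone. How many of all tested genes passed on p alone was not counted, so these passes are given as a description.

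**Figure D4:**
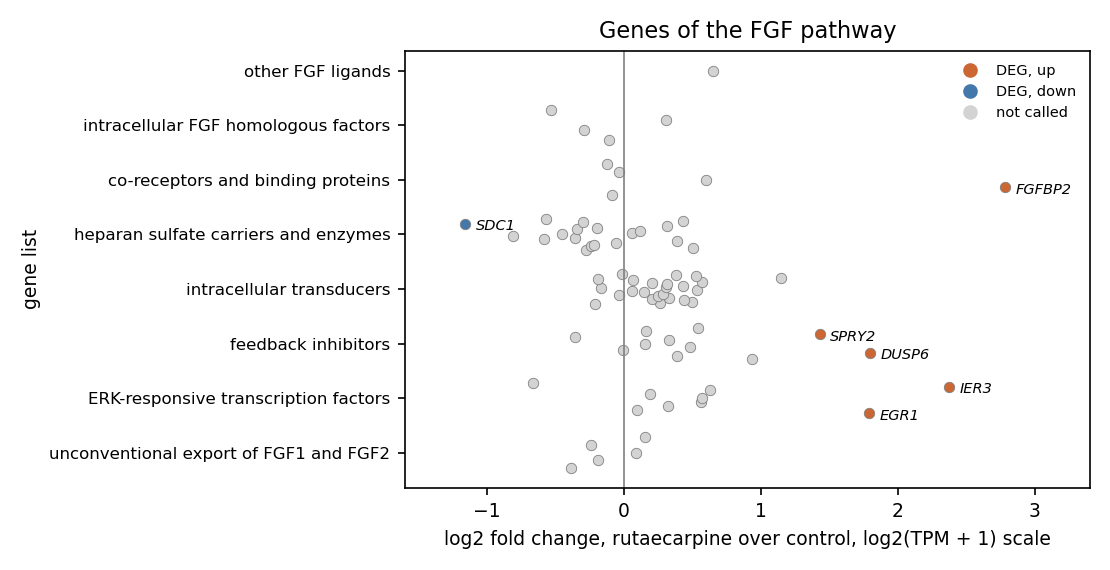
Log2 fold change of each tested gene in 8 lists of the FGF pathway on the log2(TPM + 1) scale, coloured where the gene was a DEG. Of 78 tested genes, 5 rose and 1 fell, where 2.01% of all tested genes rose and 1.50% fell. FGFBP2, 1 of the 5, passed the filter through its treated values alone. The intracellular transducers (24 genes) had no DEG.

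Among all 14377 tested genes, 2.01% rose and 1.50% fell as DEGs. Downstream of the receptors, all 24 adaptors and kinases of the list were tested and 0 were DEGs. Their median log2 fold change was 0.27 against 0.08 for all tested genes, but 0.05 against -0.01 without control replicate 3. It was 0.42 against 0.13 without control replicate 1, and 0.44 against 0.12 without control replicate 2. Of 11 feedback inhibitors, all were tested, 2 rose and 0 fell, with a median log2 fold change of 0.39, which was 0.21 without control replicate 3. DUSP6, the phosphatase of ERK, had 37.80, 37.05 and 22.09 TPM in controls and 119.57, 104.68 and 111.45 TPM after rutaecarpine (log2 fold change 1.80, adjusted p = 0.00286 by limma). SPRY2, a Sprouty inhibitor of receptor tyrosine kinases, had 48.59, 46.85 and 32.39 TPM in controls and 114.99, 112.48 and 116.09 TPM after rutaecarpine (log2 fold change 1.43, adjusted p = 0.00250 by limma). The study also listed SPRY2 as up-regulated. The paralogs of DUSP6 and SPRY2, namely SPRY1, SPRY3, SPRY4, SPRED1, SPRED2, SPRED3, DUSP4 and DUSP5, were not DEGs, nor was IL17RD. Of these, DUSP4 had an adjusted p of 0.0261 with a log2 fold change of 0.94, short of the fold threshold. Without rutaecarpine replicate 2 its log2 fold change was 1.09 with an adjusted p of 0.0377, so that 3 of the 11 rose.

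Of 9 transcription factors and early genes that answer to ERK, all were tested, 2 rose and 0 fell. EGR1, an immediate-early factor, had 38.97, 37.67 and 33.50 TPM in controls and 130.54, 115.86 and 141.57 TPM after rutaecarpine. IER3, an early gene also induced by inflammatory signals, had 270.86, 242.70 and 280.80 TPM in controls and 1357.34, 1414.77 and 1342.04 TPM after rutaecarpine. For both genes every treated library lay far above every control, and the log2 fold changes were 1.79 for EGR1 and 2.37 for IER3 (adjusted p = 3.34e-04 and 3.40e-05 by limma). The PEA3-type factors ETV1, ETV4 and ETV5, which often track FGF signalling, were not DEGs. IER2 (log2 fold change 0.63, adjusted p = 0.00577 by limma), ETV5 (0.56, adjusted p = 0.0449) and MYC (-0.67, adjusted p = 0.00785) passed on p but not on fold. The share of all tested genes that did so was not counted. Over all 8 lists, 6 of 78 tested genes (7.69%) were DEGs, against 3.51% of all tested genes. FGFBP2, which the filter kept through its treated values, was 1 of the 6. The lists were drawn up by known function, with earlier results of these data known, and many other receptors feed the same ERK genes.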

How the data were processed

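RNA-Seq libraries of U87 cells (rutaecarpine, n = 3; DMSO control, n = 3) were analysed. The authors sequenced them on an Illumina NovaSeq, quantified genes with RSEM and deposited TPM, 1 column per library; the submitters' processing notes name GRCh38.p13. The aligner and annotation release are not given in the sources used here. All 6 columns were matched to samples, and 0 were left over. Depth is unknown from TPM, so count methods, including the DESeq2 and edgeR that the notes also name, were not used. Each value was taken as log2(TPM + 1). Genes were kept at 1 TPM or more in at least 3 libraries, and groups were compared with limma 3.58.1 in R 4.3.3 (moderated with a mean-variance trend, two-sided, no covariate, no added normalization), with Benjamini-Hochberg adjustment. DEG thresholds follow the study's methods. The added 1 understates changes of weak genes. For a single gene, 3 libraries against 3 cannot give an exact permutation p below 0.1. Names missing from 35671 rows were looked up by Ensembl identifier, with 35432 found.

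The members and gene lists were chosen with earlier results of these data known. Text names all members, the DEGs of each list (at most 5), expressed other FGF genes, NUDT6, 4 AhR targets and the 5 genes most like each DEG among the members. FGFBP1, FGFBP3, KL, KLB, the FGF7 pseudogenes and other list genes without a DEG call were named after their values were seen. Alternatives were a replicate block, a pseudocount of 0.1, no filter, 1 TPM in every library, median centring, no trend, library weights and leaving out each library. Removal of trends on GC content and transcript length (splines with 5 degrees of freedom, GENCODE release 29) was added after the data were seen. The test was tried on simulated data. Their noise was independent between libraries, with no shift of a whole library, so they cannot show how such a shift affects the calls. Figures were drawn with matplotlib 3.10.9 in Python 3.11.15.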

Additional observations from a re-analysis of the deposited data

How the results depend on the processing

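FGF2 kept its direction and its call in all 14 alternative fits, between 1.99 and 2.59 when 1 library was left out. FGFRL1 stayed uncalled in all 14, between -0.28 and -0.14 when 1 library was left out. The number of members that were DEGs was 1 with all libraries as deposited. It was 2, FGF7 being the second, with median centring (FGF7 log2 fold change -1.59), with library weights (-1.38) and with length and GC trends removed (-1.65), and it lay between 1 and 2 when 1 library was left out, at 2 without control replicate 3. With library weights FGF1 (-0.74) and FGFR1 (-0.46) also had an adjusted p no higher than 0.05 by limma. Leaving out 1 library gave -0.88 to -0.41 for FGF1, -1.80 to -1.10 for FGF7 and -0.55 to -0.26 for FGFR1, and their adjusted p reached the threshold without control replicate 3 alone. FGF5, near 0 throughout, turned to -0.0750 with median centring, -0.0760 with library weights and -0.18 with length and GC trends removed, and ranged from -0.21 to 0.19 when 1 library was left out, being below 0 without control replicate 3, rutaecarpine replicate 1 or rutaecarpine replicate 3. The cause was not tested.

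Over all genes, 289 rose and 216 fell as DEGs. Median centring gave 251 and 295, library weights 293 and 290, and length and GC removal 256 and 277. Leaving out 1 library gave 164 to 280 upward, lowest without rutaecarpine replicate 3 (182 without rutaecarpine replicate 1), and 142 to 305 downward, lowest without control replicate 1 and highest without control replicate 3. Same-numbered libraries correlated in their deviations at 0.12, -0.27 and -0.22, and control replicate 3 with rutaecarpine replicate 2 at 0.39. With 3 libraries in a group, these correlations cannot settle whether the numbers pair the libraries. The main fit was planned without pairing. The replicate block gave 193 upward and 125 downward DEGs. It changed the call of none of the 6 tested members. The values of FGFR2, FGFR3 and FGFR4 near 0 carry no known read number, and whether depth limits them was not tested.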
